A study of Mus musculus with 8 samples.

Results

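The glutathione and antioxidant enzymes of the mouse renal cortex were examined in 4 aged and 4 young mice by RNA-Seq. Members were chosen by symbol, taking the glutathione S-transferases, glutathione peroxidases, peroxiredoxins, thioredoxins and thioredoxin reductases together with Gclc, Gclm, Gss, Gsr, Srxn1, Cat, Sod1, Sod2, Sod3, Hmox1, Nqo1, Nfe2l2 and Keap1. The gene table held 55 such genes among 22609, and 47 of them had at least 10 counts in 4 or more libraries and were tested. All mice were male C57BL6, aged 30 months in one group and 5 months in the other per the labels, and no label named a treatment or an altered allele in either group. The paper's methods for RNA-Seq state a slightly higher mean age for the aged mice, and the labels were used here. One library was made from each mouse, so the spread between libraries is the spread between mice.

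Glutathione is a tripeptide built from glutamate, cysteine and glycine. Glutamate-cysteine ligase, a dimer of the catalytic subunit Gclc and the modifier subunit Gclm, catalyses the rate-limiting step, and glutathione synthetase adds glycine. Glutathione peroxidases spend it to reduce peroxides, glutathione S-transferases couple it to reactive compounds, and glutathione reductase restores the oxidised form with NADPH. Peroxiredoxins and thioredoxins form a parallel peroxide-reducing system, and superoxide dismutases and catalase act without glutathione. Many of these genes are known targets of the transcription factor Nrf2, which Keap1 holds at a low level until oxidants or electrophiles reach the cell. The proximal tubule, the main cell type of the cortex, is rich in these enzymes.

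The core of the antioxidant response element, the DNA motif to which Nrf2 binds with a small Maf protein, was looked for in the 250 bases before each annotated start site because many members are Nrf2 targets. The motif was spelled TGACNNNGC and its reverse complement GCNNNGTCA, so both strands were read. Windows came from RefSeq on build GRCm38.p6, and the gene table itself was made on the older build mm9. At least 1 match stood before 8 of the 40 tested members that have a window, and before 11.5% of the 27025 genes in the RefSeq table. The other 7 tested members had no window. The 8 were Gclm, Gsta3, Gstm5, Gstm7, Nfe2l2, Prdx1, Sod1 and Txnrd1. Gstm6 had no match in its 3 windows. Of the 3 members that passed the test of age described next, the windows of Gclm and Gsta3 held a match and are shown here, with the match in capitals. The Gclm window is chr3:122245307-122245556 on the + strand and the match lies 134 bases before the start, on the reverse strand. The Gsta3 window is chr1:21240335-21240584 on the + strand and its match begins 121 bases before the start. A match is a description of these letters and not a bound site.
Gclm: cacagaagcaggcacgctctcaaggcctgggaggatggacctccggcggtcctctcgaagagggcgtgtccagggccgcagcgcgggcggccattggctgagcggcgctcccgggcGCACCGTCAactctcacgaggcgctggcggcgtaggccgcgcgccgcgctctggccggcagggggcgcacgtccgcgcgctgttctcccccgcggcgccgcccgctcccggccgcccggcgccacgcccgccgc
Gsta3: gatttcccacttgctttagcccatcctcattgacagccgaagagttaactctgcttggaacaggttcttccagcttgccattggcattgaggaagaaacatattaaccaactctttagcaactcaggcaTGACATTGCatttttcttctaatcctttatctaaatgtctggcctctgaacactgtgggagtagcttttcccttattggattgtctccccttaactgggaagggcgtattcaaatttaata

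Counts assigned to genes ranged from 14820804 to 19821429 per library, and 3 counts corresponded to 0.147 to 0.204 CPM, the count scaled to a common library size after normalisation by the trimmed mean of M values (TMM). Members together took 2.26% to 3.19% of all gene counts. On the first principal component of all 13944 tested genes, which held 48.1% of the variance, aged mouse 1 stood at -71.5 and the other 7 libraries between -16.3 and 26.2. Markers of the S1 and S2 segments of the proximal tubule were present in every library, with a summed level of 13024 CPM in aged mouse 1 and 22902 to 27770 CPM in the other libraries. Of these 10 markers, 5 had positive and 5 negative log2 fold changes with age, with a median of -0.05. In edgeR's quasi-likelihood test 2 were higher and 1 lower at an unadjusted p below 0.05, and none passed the adjusted test. The 7 markers of the S3 segment summed to 4748 to 8594 CPM in aged and 8679 to 10899 CPM in young mice, without overlap, with aged mouse 4 the highest of the aged. All 7 had a negative log2 fold change, 6 of them at an unadjusted p below 0.05, none passed the adjusted test and no marker of this list was at 0. In whole tissue, fewer cells of a type and less RNA per cell cannot be told apart.

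Age was tested by edgeR's quasi-likelihood test over all 13944 genes with Benjamini-Hochberg adjustment, and a call needed both an adjusted p under 0.05 and more than a 1.5-fold difference. Of the 47 tested members 3 were called, Gsta3 and Gstm6 higher and Gclm lower in aged mice, against 2.06% of all tested genes, 1.17% higher and 0.889% lower. Gstm6 passed the filter on low counts through the aged mice, in which it was higher. With 10 counts required in every library, 2 of 44 members were called, against 1.72% of all genes. Over the 47 members the adjusted p alone gave the same 3, against 2.95% of all genes. At an unadjusted p below 0.05 stood 23 members, 10 higher and 13 lower, where 25.5% of all genes did, 13.4% higher and 12.1% lower. Aged and young mice did not overlap in 16 members, against 18.9% of all genes. The median log2 fold change was -0.08 over the members and 0.03 over all genes. The members thus held both directions, and the roles are taken in turn here. Glutathione S-transferases had 13 positive and 4 negative fold changes with a median of 0.36, and the 4 genes of glutathione synthesis and reduction were all negative with a median of -0.90. The 6 peroxiredoxins had 5 negative fold changes with a median of -0.32, the 5 thioredoxins and reductases were all negative with a median of -0.26, and the glutathione peroxidases had 5 of 6 negative with a median of -0.08. When libraries were scaled by their total counts alone, the median of all genes moved to 0.14 and that of the members to 0.03, 9 members turned positive (Gpx1, Gpx4, Gpx7, Gsr, Gstm4, Gsto2, Gstz1, Keap1 and Txnrd3), which left 2 of 6 peroxidases (median 0.03) and 1 of 17 transferases negative, and the medians of synthesis, peroxiredoxins, thioredoxins and transferases kept their signs at -0.80, -0.21, -0.15 and 0.48.

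The number of called members depended on single mice. Leaving out aged mouse 4 gave 9, where 5.21% of all genes were called, and leaving out aged mouse 1 gave 5, where 3.17% were. In contrast, 0 were called when aged mouse 2, aged mouse 3 or any 1 young mouse was left out. Without these last 6 libraries in turn, between 8 and 119 genes of the whole table were called, and the adjusted p ranged from 0.067 to 0.120 for Gclm, from 0.056 to 0.123 for Gsta3 and from 0.059 to 0.115 for Gstm6, all in edgeR's quasi-likelihood test. Aged mouse 4 had the value nearest to the young mean in 20 of the 47 tested members and aged mouse 1 the value farthest from it in 25. DESeq2 called 9 members, where it called 6.26% of all genes, and limma-voom called 7 members and 3.46% of all genes.

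**Figure D1:**
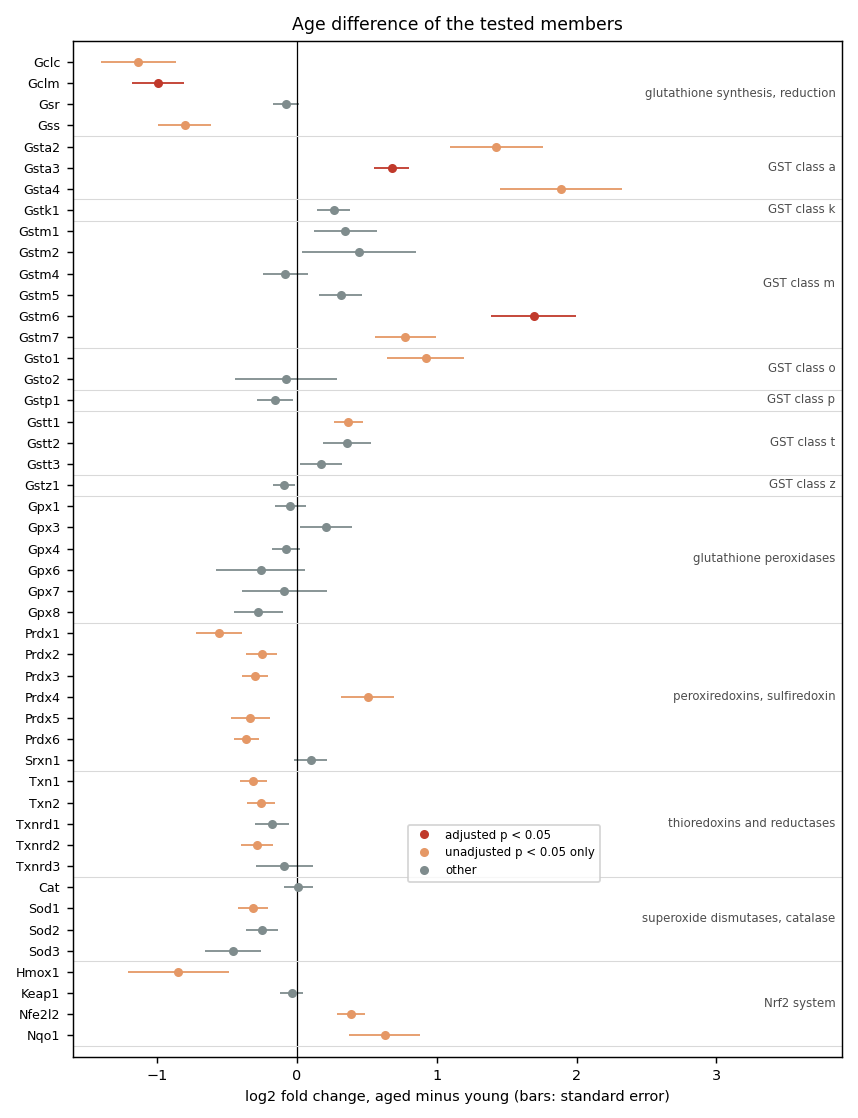
Log2 fold change of each of the 47 tested members, aged minus young, with its standard error as a bar, from edgeR's quasi-likelihood fit on 4 aged and 4 young mice. Genes are grouped by role, and red marks the 3 with an adjusted p below 0.05 while orange marks those with only an unadjusted p below 0.05. Most transferases lie right of 0, and synthesis genes, most peroxiredoxins and the thioredoxins lie left of it, of which Gsr and Txnrd3 cross 0 when libraries are scaled by total counts alone.

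The genes that make glutathione had the lowest fold changes among the role groups. Gclm fell by 49.8%, and Gclc and Gss, which did not pass the adjusted test, had fold changes of similar size in the same direction, while Gsr, which recycles glutathione, had similar values in both groups. Gclm lies on chromosome 3 at 121948475 to 121972902 (mm9, + strand). Its normalised level was 107, 138, 124 and 201 CPM in aged mice 1 to 4 and 309, 255, 261 and 309 CPM in young mice 1 to 4. Every aged mouse was below every young mouse, with aged mouse 4 the nearest. The means were 143 ± 41.0 and 284 ± 29.3 CPM (SD, n = 4 each), a log2 fold change of -0.99 ± 0.19 (SE) with an adjusted p of 0.037 in edgeR's quasi-likelihood test.

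Gclc, the catalytic partner of Gclm, was at 317, 220, 218 and 399 CPM in aged mice and at 809, 390, 586 and 744 CPM in young mice. The groups overlapped, since aged mouse 4 was above young mouse 2, the lowest of the young. Its log2 fold change of -1.13 ± 0.27 (SE) had an adjusted p of 0.056 in edgeR's quasi-likelihood test, and leaving out aged mouse 4 brought it to 0.027. Leaving out any other single mouse gave an adjusted p of 0.052 to 0.151 in that test. Gss, which completes the tripeptide, was at 97.7, 165, 128 and 191 CPM in aged mice and at 271, 225, 248 and 268 CPM in young mice. All aged mice were below all young mice. For Gss the log2 fold change was -0.80 ± 0.19 (SE) with an adjusted p of 0.056 in edgeR's quasi-likelihood test, which became 0.020 when aged mouse 4 was left out and 0.034 when aged mouse 1 was. Without any other single mouse the adjusted p of Gss was 0.075 to 0.147 in the same test. DESeq2 gave adjusted p-values of 8.7e-04 for Gclc and 0.0020 for Gss.

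Gsr, glutathione reductase, was described with its values although the rule for named genes did not include it. It was at 256, 313, 251 and 280 CPM in aged mice and at 308, 283, 275 and 293 CPM in young mice. Both groups covered nearly the same range, and the log2 fold change of -0.08 ± 0.09 (SE) had an adjusted p of 0.634 in edgeR's quasi-likelihood test. In the 3 genes of synthesis, aged mouse 4 had the highest value of the aged mice, as it had for the summed S3 markers given above. The part of the S3 segment's level in the lower values of these genes was not tested.

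**Figure D2:**
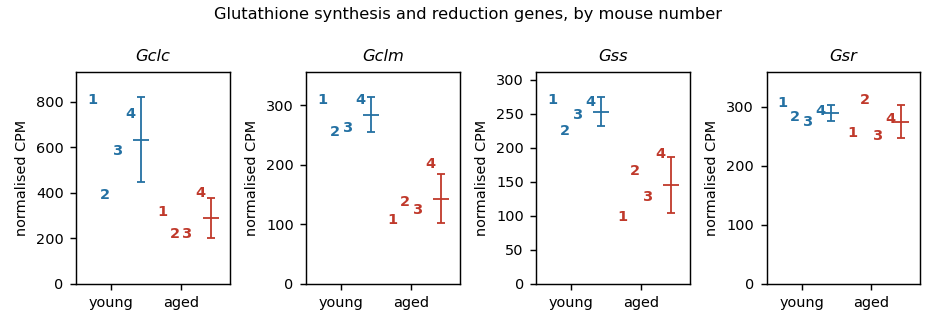
Normalised level in CPM of the 4 genes of glutathione synthesis and reduction in each mouse, with digits giving the mouse number within its group and the horizontal and vertical lines the mean and SD (n = 4). All aged mice lie below all young mice for Gclm and Gss, aged mouse 4 lies above young mouse 2 for Gclc, and the groups cover a similar range for Gsr.

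Of the 17 tested glutathione S-transferases, 2 were called higher in aged mice and 0 lower by edgeR's quasi-likelihood test, with 7 higher and 0 lower at an unadjusted p below 0.05. Over all genes, 1.17% were called higher and 13.4% were higher at an unadjusted p below 0.05 in the same test. Of the 2 called, Gstm6 passed the filter on low counts through the aged mice. With 10 counts required in every library, 1 of 15 transferases was called, where 1.72% of all genes were. Gsta3 of the alpha class rose 1.60-fold and Gstm6 of the mu class 3.23-fold. Gsta3, an alpha class enzyme that detoxifies the epoxide of aflatoxin, lies on chromosome 1 at 21230670 to 21255442 (mm9, + strand). It was at 148, 189, 211 and 149 CPM in aged mice and at 102, 114, 108 and 111 CPM in young mice. Each aged mouse was above each young mouse, and the young mice lay close together. Means were 174 ± 31.1 and 109 ± 4.91 CPM (SD, n = 4 each), a log2 fold change of 0.68 ± 0.12 (SE) with an adjusted p of 0.036 in edgeR's quasi-likelihood test.

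Gsta2 and Gsta4 had larger fold changes and larger spread, and neither passed. Gsta2, the alpha class member with the highest level per length, was at 266, 366, 263 and 106 CPM in aged mice and at 83.2, 106, 113 and 69.7 CPM in young mice. Aged mouse 4 lay within the young range and the other 3 aged mice lay above it. The log2 fold change was 1.43 ± 0.33 (SE), with an adjusted p of 0.054 over all mice and 0.00416 without aged mouse 4 in edgeR's quasi-likelihood test. Without any other single mouse the adjusted p was 0.054 to 0.153 in that test. Every stretch of 100 bases of the Gsta2 transcript has a copy of 98% identity or more elsewhere in mm9, in Gsta1 among others. Reads with multiple alignments were counted in no gene, so the level of Gsta2 may be too low. How its other reads were placed among the copies is uncertain. Gsta4, which conjugates the lipid peroxidation product 4-hydroxynonenal and was chosen after its values were seen, was at 97.0, 78.9, 45.5 and 18.3 CPM in aged mice and at 16.9, 19.1, 15.3 and 13.2 CPM in young mice. Again aged mouse 4 lay within the young range and the others above it. Gsta4 had a log2 fold change of 1.89 ± 0.43 (SE), with an adjusted p of 0.053 over all mice and 0.0039 without aged mouse 4 in edgeR's quasi-likelihood test. Without any other single mouse its adjusted p was 0.055 to 0.152 in that test.

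Gstm6, a mu class gene on chromosome 3 at 107741765 to 107746667 (mm9, - strand), was measured near the lower limit of the data. It had 26, 24, 41 and 29 counts in aged mice and 9, 13, 7 and 5 counts in young mice, which is 1.28, 1.56, 2.19 and 1.58 CPM against 0.555, 0.688, 0.476 and 0.295 CPM. The groups did not overlap, and the log2 fold change was 1.69 ± 0.31 (SE) with an adjusted p of 0.036 in edgeR's quasi-likelihood test. The gene model overlaps that of Gstm3 on the same strand, and Gstm3 had 0 to 3 counts per library. Of the 5 libraries in which Gstm6 reached 10 counts, 4 were aged and 1 was young, so it passed the filter on low counts through the group in which it was higher.

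Gstm1, the mu class member with the highest level per length, was at 340, 220, 181 and 170 CPM in aged mice and at 205, 168, 140 and 204 CPM in young mice. The groups overlapped, with aged mouse 1 highest, and the log2 fold change was 0.35 ± 0.23 (SE) with an adjusted p of 0.353 in edgeR's quasi-likelihood test. Gstm7, chosen after its values were seen, was at 13.5, 11.3, 9.89 and 6.43 CPM in aged mice and at 5.92, 5.39, 6.94 and 5.73 CPM in young mice. Aged mouse 4 lay within the young range, and the log2 fold change was 0.78 ± 0.22 (SE) with an adjusted p of 0.080 in edgeR's quasi-likelihood test. Gstm2, Gstm4 and Gstm5 had log2 fold changes of 0.44, -0.08 and 0.31 and overlapping groups. Gstm2 shares 80.9% of its windows of 100 bases with other loci, and its highest value, 46.0 CPM, was in aged mouse 1. Without that mouse its log2 fold change turned to -0.21.

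Gsto1, an omega class enzyme with thioltransferase activity, was at 74.7, 45.0, 39.0 and 26.2 CPM in aged mice and at 23.2, 22.3, 27.7 and 24.5 CPM in young mice. Aged mouse 4 was within the young range, and the log2 fold change of 0.92 ± 0.27 (SE) had an adjusted p of 0.091 in edgeR's quasi-likelihood test. Gstt1, the theta class member with the highest level per length, was at 95.1, 121, 132 and 109 CPM in aged mice and at 85.0, 88.5, 94.5 and 86.1 CPM in young mice. Here every aged mouse was above every young mouse, by a narrow margin for aged mouse 1, with a log2 fold change of 0.37 ± 0.10 (SE) and an adjusted p of 0.082 in edgeR's quasi-likelihood test.

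The other classes showed smaller differences. Gstk1, the mitochondrial and peroxisomal kappa class enzyme, was at 53.5, 67.1, 66.3 and 47.9 CPM in aged mice and at 46.8, 49.4, 52.6 and 46.7 CPM in young mice, with a log2 fold change of 0.26 ± 0.12 (SE). Gstp1 was at 32.8, 51.3, 37.8 and 40.2 CPM in aged mice and at 43.5, 48.3, 45.1 and 43.9 CPM in young mice, with a log2 fold change of -0.16 ± 0.13 (SE), and shares 92.4% of its windows with other loci. Gstz1, which also isomerises a product of tyrosine breakdown, was at 259, 287, 284 and 293 CPM in aged mice and at 290, 298, 302 and 306 CPM in young mice, with a log2 fold change of -0.09 ± 0.08 (SE). The groups overlapped in all of these. Their adjusted p-values in edgeR's quasi-likelihood test were 0.198, 0.456 and 0.463.

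Summed over the 17 tested transferases, the level was 1768, 1788, 1577 and 1259 CPM in aged mice and 1155, 1188, 1178 and 1198 CPM in young mice. Aged mouse 4 was the lowest of the aged and still above the highest young mouse. The alpha class made up 21.7% to 35.5% of this sum in aged mice and 16.2% to 20.1% in young mice, and the zeta class 14.6% to 23.3% against 25.1% to 25.6%. These sums and shares are descriptions, since Gsta2 and Gsta3 enter both. Gstz1, the only zeta member, had means of 281 CPM in aged and 299 CPM in young mice. The mean total was 1598 against 1180 CPM, so the lower zeta share mostly reflects the higher total. The level of Gsta2, which enters that total, is uncertain because of its copies.

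**Figure D3:**
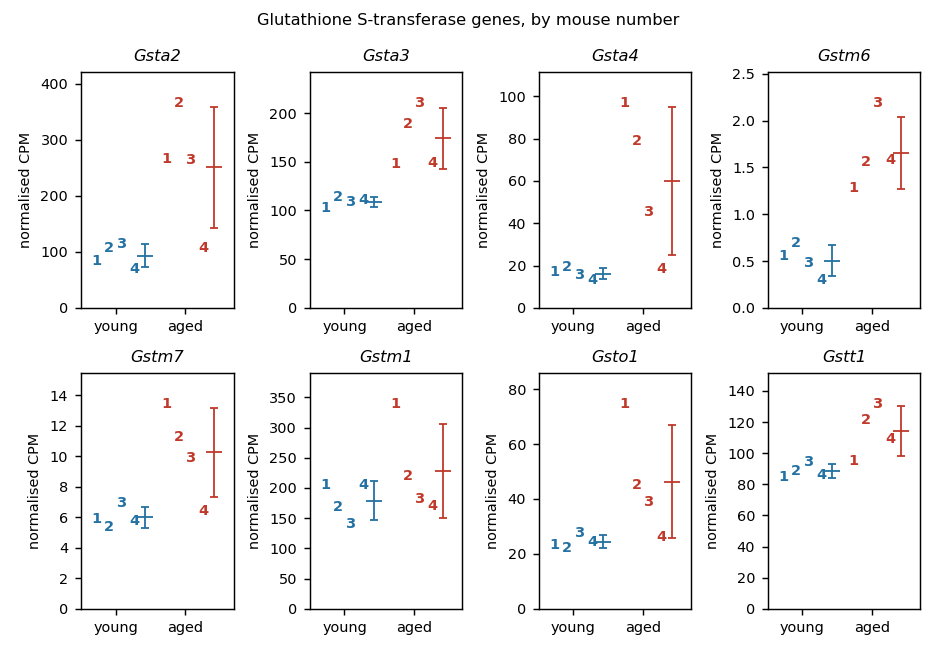
Normalised level in CPM of 8 transferases in each mouse, with digits giving the mouse number and lines the mean and SD (n = 4). Aged mouse 4 lies within or nearest to the young range for Gsta2, Gsta4, Gstm7 and Gsto1, Gstm1 overlaps, and the groups are apart for Gsta3, Gstm6 and Gstt1.

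None of the glutathione peroxidases passed the test of age, and their levels spanned nearly the whole range of the members. Gpx3, the secreted plasma enzyme that the kidney supplies, had the highest level of all members at 10899 CPM per kilobase of transcript and ranked 2 among all tested genes by mean CPM. It was at 17923, 22114, 20085 and 14373 CPM in aged mice and at 15592, 18499, 15703 and 14699 CPM in young mice. The groups overlapped, as aged mouse 4 was below all young mice and aged mice 2 and 3 above all of them. The log2 fold change was 0.21 ± 0.19 (SE) with an adjusted p of 0.497 in edgeR's quasi-likelihood test. Gpx1, the cytosolic and mitochondrial enzyme, followed at 1602 CPM per kilobase with a log2 fold change of -0.05 ± 0.11 (SE). Gpx4, which reduces lipid hydroperoxides in membranes, had -0.08 ± 0.10 (SE), and Gpx6, Gpx7 and Gpx8 had -0.26, -0.09 and -0.27. No member of this group had an unadjusted p below 0.05, and 70.8% of the windows of Gpx4 have near-identical copies elsewhere.

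Per kilobase of transcript, Gpx3 and Gpx1 were followed by Prdx5 at 575, Cat at 458, Sod1 at 384, Prdx1 at 227 and Gsta2 at 197 CPM per kilobase. The lowest tested members were Gstm6 at 0.914, Gpx7 at 0.634 and Gsto2 at 0.436 CPM per kilobase. Of the genes called with age, Gsta3 stood at 122 and Gclm at 44.0 CPM per kilobase, so the calls were spread over the range of levels.

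**Figure D4:**
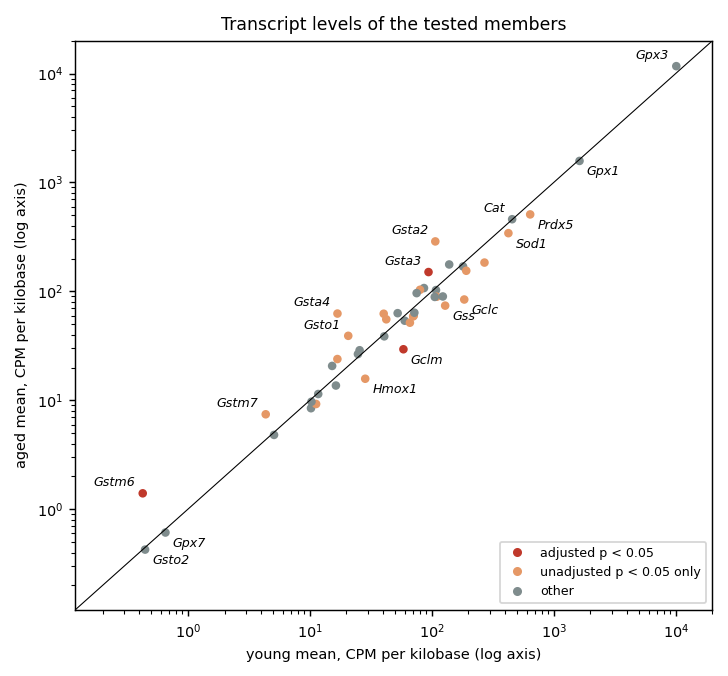
Mean level of the tested members in young (horizontal) and aged (vertical) mice, in CPM per kilobase of transcript on log axes, with the line of equal level. Gpx3 stands highest at 10899 on the mean of both groups, and the members called with age, in red, are Gstm6, Gclm and Gsta3.

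Peroxiredoxins reduce peroxides with electrons from thioredoxin, except Prdx6, which uses glutathione. In 5 of the 6, every aged mouse was below every young mouse, each with an unadjusted p below 0.05, and none of the 5 passed the adjusted test. Of all 13944 tested genes, 1396 were lower in aged mice without overlap. In edgeR's quasi-likelihood test 12.1% of all genes were lower at an unadjusted p below 0.05. Prdx1, the cytosolic enzyme, was at 280, 490, 459 and 459 CPM in aged mice and at 614, 609, 613 and 648 CPM in young mice. Aged mouse 1 was far below the other aged mice, and the log2 fold change was -0.56 ± 0.16 (SE) with an adjusted p of 0.090 in edgeR's quasi-likelihood test. Prdx6 was at 134, 128, 108 and 123 CPM in aged mice and at 164, 150, 152 and 165 CPM in young mice. Each aged value was below each young value, and the log2 fold change was -0.36 ± 0.09 (SE) with an adjusted p of 0.059 in edgeR's quasi-likelihood test, and DESeq2 gave 0.0032.

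Prdx5, the peroxiredoxin with the highest level per length, was at 479, 710, 646 and 735 CPM in aged mice and at 824, 768, 786 and 860 CPM in young mice, a log2 fold change of -0.33 ± 0.14 (SE). Prdx3, the mitochondrial enzyme, was at 115, 149, 130 and 134 CPM in aged mice and at 161, 155, 169 and 165 CPM in young mice, a log2 fold change of -0.30 ± 0.09 (SE). Prdx2 was at 76.0, 108.2, 102 and 100.1 CPM in aged mice and at 115, 118, 118 and 108.4 CPM in young mice, a log2 fold change of -0.25 ± 0.11 (SE). In all 3 the lowest value was that of aged mouse 1, and the adjusted p-values in edgeR's quasi-likelihood test were 0.176, 0.093 and 0.196. Prdx4, the enzyme of the endoplasmic reticulum, had the opposite sign and was chosen after its values were seen. It was at 16.3, 28.8, 28.2 and 21.6 CPM in aged mice and at 15.2, 15.3, 20.6 and 15.5 CPM in young mice, with aged mouse 1 within the young range. Its log2 fold change was 0.51 ± 0.19 (SE) with an adjusted p of 0.145 in edgeR's quasi-likelihood test, and it was called without aged mouse 1, with a log2 fold change of 0.65 and an adjusted p of 0.040. Without any other single mouse the adjusted p of Prdx4 was 0.141 to 0.294 in the same test. Srxn1, which repairs overoxidised peroxiredoxins, had a log2 fold change of 0.10 ± 0.12 (SE).

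Thioredoxins and their reductases had small negative fold changes in the TMM-scaled data, from -0.31 to -0.09. Txn1, the cytosolic thioredoxin, was at 136, 169, 162 and 183 CPM in aged mice and at 200, 197, 196 and 213 CPM in young mice. Txn2, the mitochondrial one, was at 97.97, 135, 124 and 126 CPM in aged mice and at 150, 147, 141 and 139 CPM in young mice. The groups did not overlap in either, and aged mouse 1 was the lowest. The log2 fold changes were -0.31 ± 0.10 and -0.26 ± 0.10 (SE), with adjusted p-values of 0.104 and 0.164 in edgeR's quasi-likelihood test. Txnrd1, Txnrd2 and Txnrd3, which reduce thioredoxin with NADPH, had log2 fold changes of -0.18, -0.29 and -0.09 and overlapping groups, and that of Txnrd3 turned positive when libraries were scaled by total counts alone.

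Superoxide dismutases turn superoxide into hydrogen peroxide, and catalase breaks the latter down. Cat was at 1318, 1189, 1067 and 1232 CPM in aged mice and at 1146, 1140, 1204 and 1278 CPM in young mice, with fully overlapping groups and a log2 fold change of 0.01 ± 0.10 (SE). Sod1, the cytosolic enzyme, was at 190, 216, 217 and 262 CPM in aged mice and at 280, 258, 265 and 296 CPM in young mice. Aged mouse 4 was just above the lowest young mouse, and the log2 fold change was -0.31 ± 0.11 (SE). Sod2, the mitochondrial enzyme, was at 269, 363, 342 and 387 CPM in aged mice and at 404, 393, 402 and 419 CPM in young mice, a log2 fold change of -0.25 ± 0.12 (SE). Sod3, the extracellular enzyme, was at 189, 373, 329 and 393 CPM in aged mice and at 434, 425, 435 and 467 CPM in young mice, a log2 fold change of -0.46 ± 0.20 (SE). For Sod2 and Sod3 all aged mice were below all young mice, with aged mouse 1 lowest. The adjusted p-values of Cat, Sod1, Sod2 and Sod3 in edgeR's quasi-likelihood test were 0.951, 0.122, 0.212 and 0.196. Aged mouse 1, lowest for most of the peroxiredoxins, thioredoxins and dismutases, was also the library with the lowest summed S1 and S2 markers, as given above, and the part of that in these values was not tested.

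**Figure D5:**
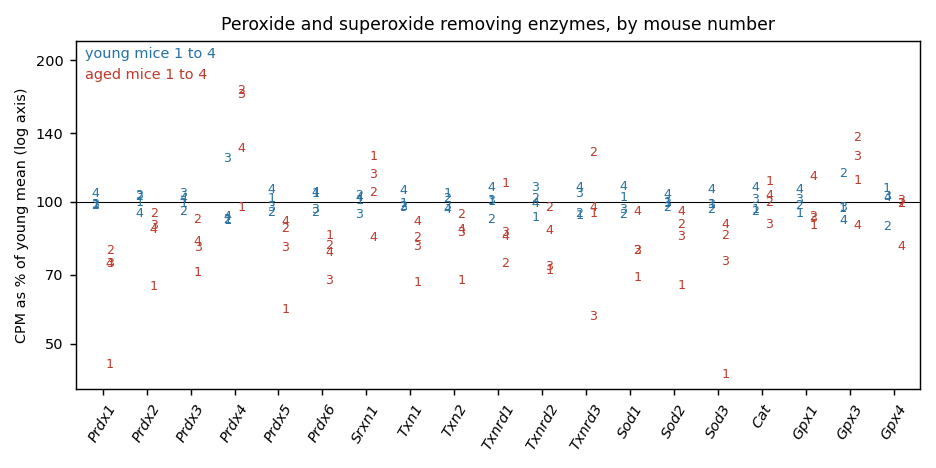
Level of peroxide and superoxide removing members in each mouse, in percent of the young mean on a log axis, with digits giving the mouse number. Aged mice lie below all young mice for Prdx1, Prdx2, Prdx3, Prdx5, Prdx6, Txn1, Txn2, Sod2 and Sod3, and the groups overlap for Cat, Gpx1 and Prdx4.

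The regulators and classical targets of Nrf2 did not share a direction. Nfe2l2, which encodes Nrf2, was at 161, 128, 140 and 119 CPM in aged mice and at 101, 100, 108 and 110 CPM in young mice. All aged mice were above all young mice, and the log2 fold change was 0.39 ± 0.10 (SE) with an adjusted p of 0.069 in edgeR's quasi-likelihood test. Keap1 was at 45.8, 50.3, 57.5 and 50.8 CPM in aged mice and at 53.3, 54.2, 50.5 and 51.7 CPM in young mice, overlapping, with a log2 fold change of -0.04 ± 0.08 (SE) and an adjusted p of 0.797 in edgeR's quasi-likelihood test.

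Nqo1, a quinone reductase, was at 159, 86.8, 71.6 and 69.8 CPM in aged mice and at 69.6, 61.4, 52.5 and 67.3 CPM in young mice. The groups were apart by a narrow margin and aged mouse 1 was far above the rest. For Nqo1 the log2 fold change was 0.63 ± 0.26 (SE) with an adjusted p of 0.168 in edgeR's quasi-likelihood test. Hmox1, which breaks down haem, was at 39.3, 11.97, 31.5 and 18.6 CPM in aged mice and at 43.8, 34.7, 36.2 and 68.3 CPM in young mice. The groups overlapped, and the log2 fold change was -0.85 ± 0.36 (SE) with an adjusted p of 0.184 in edgeR's quasi-likelihood test. Nqo1 and Hmox1, both textbook Nrf2 targets, thus had fold changes of opposite sign, as did Gsta3 and Gclm.

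Lists of other genes of these pathways held 91 tested genes that are not members, of which 5 were called, against 2.06% of all genes. Among 20 other genes of glutathione synthesis, breakdown and transport, Abcc4 rose and Cndp2 fell. Abcc4, an exporter that carries glutathione and organic anions, was at 458, 257, 294 and 169 CPM in aged mice and at 84.1, 91.5, 101 and 98.8 CPM in young mice, a log2 fold change of 1.65 ± 0.26 (SE) with an adjusted p of 0.026 in edgeR's quasi-likelihood test. Cndp2, a peptidase that cleaves the cysteinylglycine left from glutathione, was at 225, 493, 327 and 739 CPM in aged mice and at 1565, 1923, 1776 and 1624 CPM in young mice, a log2 fold change of -1.95 ± 0.33 (SE) with an adjusted p of 0.028 in edgeR's quasi-likelihood test. In both, the aged mice were clear of the young mice and aged mouse 4 was the nearest.

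Of 22 other Nrf2 targets and regulators, Cbr1 and Cbr3 rose and none fell. Cbr1, a carbonyl reductase, was at 104, 118, 59.7 and 35.5 CPM in aged mice and at 22.9, 21.3, 26.6 and 26.3 CPM in young mice, with a log2 fold change of 1.71 ± 0.33 (SE). Cbr3, its neighbour in the family, was at 10.9, 7.35, 5.24 and 1.91 CPM in aged mice and at 1.60, 1.53, 1.36 and 1.00 CPM in young mice, with a log2 fold change of 2.20 ± 0.47 (SE). Their adjusted p-values in edgeR's quasi-likelihood test were 0.039 and 0.047, and aged mouse 4 was again nearest to the young mice. Of 9 genes that supply NADPH, Me1, the cytosolic malic enzyme, fell, from 464, 418, 404 and 445 CPM in young mice to 163, 218, 175 and 334 CPM in aged mice, a log2 fold change of -0.96 ± 0.21 (SE) with an adjusted p of 0.049 in edgeR's quasi-likelihood test. None of 14 other glutathione-using enzymes, 14 other genes of the thioredoxin system or 12 sources of oxidants was called. In edgeR's quasi-likelihood test, 5, 4 and 4 of these had an unadjusted p below 0.05. That was 35.7%, 28.6% and 33.3%, against 25.5% of all genes. Of the 5 called genes, 1, Abcc4, was still called without aged mouse 2, and none without aged mouse 3 or any 1 young mouse. Without aged mouse 4, 13 genes of these lists were called, where 5.21% of all genes were. Without aged mouse 1, 8 were called, where 3.17% of all genes were.

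Markers of other cells were summed in the same way. Sums of thick limb, distal convoluted tubule, collecting duct and red cell markers overlapped between the groups. So did those of podocyte, endothelial and fibroblast markers. In aged mouse 4 these last sums were 315, 427 and 242 CPM, and the lowest young values were 434, 521 and 318 CPM. No tested marker of these lists passed the adjusted test in edgeR, and 4, 5 and 2 had positive and 1, 1 and 4 negative fold changes. The summed level of lymphocyte and plasma cell markers was 37.4 to 102 CPM in aged and 8.33 to 19.2 CPM in young mice, and that of adipocyte markers 8.12 to 262 CPM, highest in aged mouse 1, against 1.09 to 24.0 CPM. No gene of either list was at 0 in all libraries, and 6 of 6 tested lymphocyte and plasma cell markers and 4 of 4 adipocyte markers had positive fold changes, of which 1 lymphocyte and plasma cell marker and 0 adipocyte markers passed the adjusted test in edgeR, with 2 and 4 at an unadjusted p below 0.05. Macrophage markers summed to 84.4 to 179 CPM in aged and 105 to 159 CPM in young mice, but the single markers differed in direction. Of the 7 tested, 6 had positive fold changes and 1 a negative one, with a median log2 fold change of 0.29. The negative one was called lower in edgeR's quasi-likelihood test and 0 were called higher, with 1 higher and 1 lower at an unadjusted p below 0.05. Like the adipocyte sum, many tested members had their highest value of all libraries in aged mouse 1. These were Gsta4, Gstm1, Gstm2, Gstm7, Gsto1, Gstt2, Gstt3, Nqo1, Nfe2l2, Srxn1, Cat, Txnrd1 and Gpx6. The same mouse was lowest for most of the peroxiredoxins, thioredoxins and dismutases. The part of these cells in the levels of the members was not tested.

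The 8 members that were not tested had low counts. Gsta1 had 56, 7, 11 and 3 counts in aged mice and 2, 5, 4 and 1 counts in young mice, and its sequence is nearly the same as that of Gsta2. Gstp2 had 11, 10, 9 and 9 counts in aged mice and 2, 4, 6 and 8 in young mice, and all its windows have copies elsewhere. Gpx2, Gpx2-ps1, Gpx5, Gstm3, Gstt4 and Prdx6-ps1 had 0 to 6 counts in every library.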

How the data were processed

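RNA-Seq was carried out by the authors on the kidney cortex of 8 mice. They depleted ribosomal RNA, made stranded libraries, aligned paired reads with TopHat2 to mm9 and counted them by strand with HTSeq on RefSeq genes, and the submitters' processing notes also name CASAVA 1.8.2 and SAMtools. The deposited values were raw counts per gene, 1 table per library, and a joint table with identical columns was set aside. The 5 rows that name no gene were left out (no feature 20.0% to 29.9%, multiple alignments 34.3% to 39.1% of each library's total).

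Groups were taken from the labels. Genes passing edgeR's filterByExpr (minimum count 10) were fitted with glmQLFit and glmQLFTest (edgeR 4.0.16, R 4.3.3) on TMM-scaled counts over all 8 libraries, with age as the only term and Benjamini-Hochberg adjustment over 13944 genes. Calls needed an adjusted p below 0.05 and a fold above 1.5. DESeq2 1.42.0, limma 3.58.1 (voom), other scalings and filters, a replicate block and fits without each mouse were alternatives. The fit was tested on simulated data. Copies were sought with BLAST 2.17.0 at 98% identity over 100 bases. Members at a few counts are measured with low precision, and the part of counting noise in the spread between mice was not computed.

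Members described by mouse were those with an adjusted p below 0.05, those with an unadjusted p below 0.05 and groups that do not overlap, the member with the highest level per length in each role group or transferase class, and Nfe2l2, Keap1, Nqo1, Hmox1, Gclc, Gclm, Cat and Sod1 to Sod3 in any case. Pathway genes were named at an adjusted p below 0.05. The members, pathway lists and marker lists were chosen with earlier results of these data known. Same-numbered aged and young mice had correlations of deviations of 0.21, 0.04, 0.20 and -0.03, so numbers were not taken as pairs.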

Additional observations from a re-analysis of the deposited data

Results flagged for a closer look

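Within groups of 4 mice, 6 of 104 member and pathway values had 1 mouse set apart from the other 3 by more than Dixon's 95% criterion allows, where chance alone gives about 5.2. Prdx1 was flagged in both groups, as aged mouse 1 was the lowest (gap 0.848, as a share of the whole range in its group) and young mouse 4 the highest (gap 0.882). Aged mouse 4 was the highest for Gpx1 (gap 0.84) and the lowest for Gpx4 (gap 0.923). Young mouse 4 was the highest for Gstt2 (gap 0.89) and young mouse 3 the highest for Prdx4 (gap 0.943).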

How the results depend on the processing

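No member changed sign past a threshold under any alternative, and 7 that did not pass in any of the fits concerned (Cat, Gpx7, Gstm2, Gstm4, Gsto2, Keap1 and Txnrd3) changed sign without some single mouse. The 3 members called became 9 with the DESeq2 test, 7 with limma-voom, 6 with scaling by library size only and 1 at a fold above 2, and 0 to 9 without 1 mouse. The 1 at a fold above 2 was Gstm6, which had few counts, while the folds of Gclm and Gsta3 were 1.99 and 1.60. Members with an adjusted p below 0.05, 3 in all, were 15 with DESeq2, 11 with limma-voom, 8 with library size only and 0 to 11 without 1 mouse. The 287 genes called in the whole table became 873 with DESeq2, 483 with limma-voom, 488 with library size only and 165 at a fold above 2, and 8 to 733 without 1 mouse. The 5 pathway genes called, whose alternatives were added after seeing the data, became 15 with DESeq2 and 9 with limma-voom, and 0 to 13 without 1 mouse. Same-numbered mice were not a stated pairing, and with the replicate number as a block 3 members (Gclc, Gclm and Gsta2), 130 genes of the table and 3 pathway genes were called. DESeq2 size factors, upper-quartile scaling and the other low-count filters left 2 or 3 members called. The adjusted p over all alternatives ranged from 3.8e-05 to 0.120 for Gclm, 1.4e-04 to 0.123 for Gsta3 and 0.0016 to 0.115 for Gstm6, which had no value when 10 counts were required in every library. The causes of these differences were not tested. Fits without a mouse also have fewer samples. Low counts limit Gstm6, Gpx7, Gsto2 and the untested members.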
